A study of Mus musculus with 9 samples.

Results

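Described here are 10 genes that restrain mitogen-activated protein kinase (MAPK) and epidermal growth factor receptor (EGFR) signaling, 9 dual-specificity phosphatases (Dusp1, Dusp2, Dusp4, Dusp5, Dusp6, Dusp7, Dusp8, Dusp10 and Dusp16) and Errfi1, out of 53801 genes in the count table. They were chosen by role and from differences in their measured counts between treatment groups in these same libraries. Their levels and fold changes are therefore given as a description, with no p-value. Where counts of these genes past a test's threshold are printed, they stand beside the share or number of all genes, and nothing is read from them. All 10 passed the filter on low counts and were among the 12538 protein-coding genes tested, and each had at least 10 counts in every library.

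RNA was sequenced from viable cells sorted on CD11b, a myeloid surface marker, out of the brains of male C57BL/6J mice carrying GL261 glioma, a mouse glioma line labelled with luciferase and tdTomato. The question was how an oral arginase inhibitor and a checkpoint antibody, alone and together, alter tumor-associated myeloid cells. Mice were 10 to 12 weeks old when the study began. Cells were collected on day 28 by the methods and on day 21 by a figure legend, a difference that was not resolved here. All mice were implanted with glioma cells, and no group without implantation was analysed here. The paper calls the sorted hemispheres tumor-bearing, and also reports that the combination abrogated tumor growth in some cases. The CTR group received saline (n = 2 libraries). The OAT-1746 group received 50 mg/kg of OAT-1746, the arginase inhibitor, from day 1 (n = 2). The anti-PD-1 group received 2.5 mg/kg of antibody between days 8 and 14 (n = 2), and the COMB group received both agents (n = 3). For anti-PD-1 replicate 2 the treatment entry reads anti-PD-2, while its title places it with anti-PD-1, and the title was followed. The methods call the libraries biological replicates. The tests set group differences against a spread between libraries that was estimated over all 9 libraries, partly by sharing between genes.

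MAPK cascades relay signals from growth factor, cytokine and pattern recognition receptors to ERK, JNK and p38, which switch on immediate early genes. Dual-specificity phosphatases remove the activating phosphates from these kinases, and many of them are themselves induced by the pathway, which closes a negative feedback loop. In macrophages and microglia such phosphatases limit the strength and length of inflammatory responses, and Errfi1 (also called Mig6) binds and inhibits EGFR.

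Total counts per library ran from 13048075 in COMB replicate 1 to 18796479 in anti-PD-1 replicate 2. Itgam, which encodes CD11b, was detected in every library, at 302 and 370 CPM (TMM-normalized counts scaled to a common library size) in CTR, 445 and 446 with OAT-1746, 294 and 327 under anti-PD-1 and 366, 307 and 328 in COMB. OAT-1746 replicate 2 stood apart from the rest. Its log2 CPM correlated with those of the other libraries at Pearson r 0.911 to 0.956, against 0.960 to 0.989 among the other 8 libraries. Counts of calls, and several fold changes that this library moved, are also given without it. COMB replicate 1 lay apart within its group: the chi-square per degree of freedom between counts was 53.0 and 38.8 against the other COMB libraries and 7.85 between those, with 33.4 in CTR, 38.5 under anti-PD-1 and 91.2 with OAT-1746. The share of counts from mitochondrial genes was highest in both OAT-1746 libraries, 2.46% and 2.26%, against 1.32% and 1.10% in CTR, 0.779% and 1.43% under anti-PD-1 and 1.61%, 0.810% and 0.931% in COMB.

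Marker genes of the cell types a CD11b sort can hold also differed between libraries. The 10 microglia markers, all in the table, summed to 13539 and 21600 CPM in CTR, 28362 and 35504 with OAT-1746, 20204 and 16396 under anti-PD-1 and 24675, 18475 and 17357 in COMB. Both OAT-1746 libraries were thus the highest of the 9. The 10 markers of monocytes and macrophages, led by Lyz2, summed to 6817 and 7158 CPM in CTR, 5972 and 1377 with OAT-1746, 7740 and 8483 under anti-PD-1 and 5797, 5804 and 5936 in COMB. OAT-1746 replicate 2 was far the lowest for this list. The 10 natural killer cell markers, led by Klrk1, summed to 80.4 and 88.2 CPM in CTR, 114 and 26.3 with OAT-1746, 338 and 203 under anti-PD-1 and 89.9, 175 and 187 in COMB, with both anti-PD-1 libraries the highest. The 9 neutrophil markers, led by S100a9, summed to 73.5 and 171 CPM in CTR, 150 and 247 with OAT-1746, 130 and 99.0 under anti-PD-1 and 186, 217 and 206 in COMB. The 5 astrocyte markers, led by Aldoc, summed to 66.3 and 68.3 CPM in CTR, 81.5 and 61.9 with OAT-1746, 66.1 and 77.2 under anti-PD-1 and 120, 117 and 113 in COMB, where all 3 libraries were the highest.

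The other lists were compared by their mean sums, first CTR, then OAT-1746, then anti-PD-1, then COMB. Border macrophage markers, led by Mrc1, summed to 591, 474, 461 and 509 CPM, although in OAT-1746 against CTR 4 of 7 had higher values, with a median log2 fold change of 0.34. Dendritic cell markers, led by Siglech, which is also on the microglia list, summed to 320, 526, 381 and 387 CPM. That sum mostly follows Siglech: in OAT-1746 against CTR 5 of 7 dendritic markers had lower values, with a median of −0.24. Lymphocyte markers were low in all groups: T cell markers, led by Cd4, summed to 10.7, 12.3, 19.5 and 13.4 CPM, and B cell markers, led by Cd79b, to 14.5, 24.0, 15.1 and 18.9 CPM. The 3 B cell markers tested had a median of −0.44 in OAT-1746 against CTR, against the direction of their sum. Neuron markers summed to 5.49, 10.2, 4.27 and 4.52 CPM. Oligodendrocyte markers, led by Mbp, summed to 184, 234, 199 and 222 CPM. Endothelial markers, led by Flt1, summed to 98.3, 127, 131 and 135 CPM. Erythroid markers, led by Hbb-bs, differed widely within OAT-1746 and anti-PD-1, with 5.47 and 10.4 CPM in CTR, 1.11 and 30.7 with OAT-1746, 18.7 and 0.845 under anti-PD-1 and 10.2, 9.17 and 9.57 in COMB. No marker gene was at 3 counts or fewer in every library. Bulk samples cannot tell fewer cells of a type from less RNA per cell, and the part of these marker differences in the results on the phosphatases was not tested.

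The 10 genes spanned a wide range of levels. Per kilobase of exon, Dusp1 had the highest mean level over the 9 libraries, 494 CPM per kb, which made up 68.1% of the summed level of the 10 genes. Dusp6 followed with 141 CPM per kb, or 19.5% of the sum. Next came Dusp7 (25.7 CPM per kb) and Dusp2 (24.9), then Errfi1 (14.14) and Dusp5 (14.02), then Dusp16 (6.52), Dusp8 (2.167), Dusp10 (1.97) and Dusp4 (0.915). Dusp7 and Dusp2, Errfi1 and Dusp5, and Dusp8 and Dusp10 were neighbours whose means differed by less than the spread between libraries. The ratio of the highest to the lowest library was 13.6 for Dusp8, 7.44 for Errfi1 and 3.79 for Dusp4, but 1.71 for Dusp1 and 1.46 for Dusp6. The summed level of all 10 genes was 619 and 671 CPM per kb in CTR, 729 and 938 with OAT-1746, 906 and 678 under anti-PD-1 and 630, 692 and 663 in COMB, so that COMB overlapped CTR. Without Dusp1, the summed level was 236 and 219 CPM per kb in CTR, 252 and 303 with OAT-1746, 251 and 258 under anti-PD-1 and 201, 188 and 176 in COMB. All 3 COMB libraries lay below the other 6 libraries on this second sum only.

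**Figure D1:**
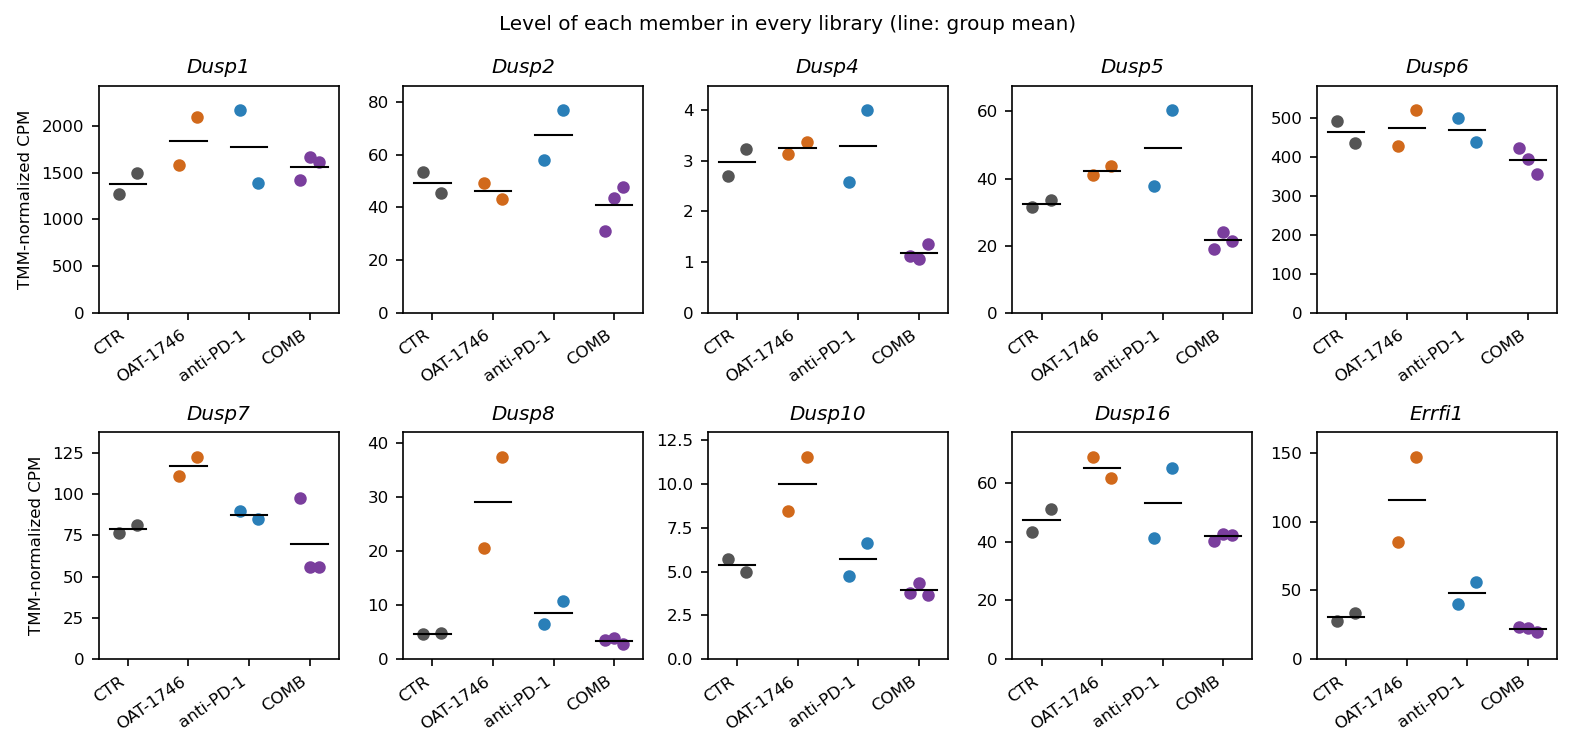
TMM-normalized CPM of each of the 10 genes (y axis, 1 panel per gene, each starting at 0) in the 9 libraries, 1 point per library, by group, with a line at the group mean. Dusp8 and Errfi1 were highest in both OAT-1746 libraries, and Dusp4 and Dusp5 were lowest in the 3 COMB libraries.

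Errfi1 (ENSMUSG00000028967), the EGFR inhibitor, lies on the plus strand of GRCm38 at chr4:150853919-150868892. Its level was 27.4 and 33.9 CPM in CTR, 84.9 and 147 with OAT-1746, 39.998 and 56.4 under anti-PD-1 and 23.5, 22.6 and 19.8 in COMB. The groups did not overlap: both OAT-1746 libraries were highest, then anti-PD-1, then CTR, and the 3 COMB libraries were lowest. Group means were 30.6 ± 4.59 (SD, n = 2) in CTR, 116 ± 44.1 (n = 2) with OAT-1746, 48.2 ± 11.6 (n = 2) under anti-PD-1 and 22.0 ± 1.95 (n = 3) in COMB.

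Dusp8 (ENSMUSG00000037887), which acts mainly on JNK and p38, lies on the minus strand at chr7:142079490-142095843. Its level was 4.63 and 4.76 CPM in CTR, 20.7 and 37.5 with OAT-1746, 6.48 and 10.8 under anti-PD-1 and 3.56, 3.89 and 2.76 in COMB. The order of the groups was that of Errfi1, again with no overlap. Counts of Dusp8 ranged from 39 to 655 per library, so its low levels rest on few reads.

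The stretches before the starts of Errfi1 and Dusp8, the genes that varied most across the libraries, are shown with those of Dusp1 and Dusp5. The windows shown are the ones that held a cyclic AMP response element or a CArG box, both described below. Promoter windows of 300 bases (250 before and 50 after each start) came from RefSeq on GRCm38.p6. Of the 10 genes 9 matched, with 10 windows, as Errfi1 has a pair of starts; Dusp4 had no entry. The 250 bases before the start are chr4:150854820-150855069 on the plus strand for the second start of Errfi1, chr7:142095285-142095534 on the minus strand for Dusp8, chr17:26508473-26508722 on the minus strand for Dusp1, and chr19:53528895-53529144 on the plus strand for Dusp5. Capitals mark the cyclic AMP response element (CRE) TGACGTCA and the TATA box TATAAA of Errfi1, the CRE matches of Dusp8 and Dusp1, and the adjoining CArG boxes of Dusp5, the motif named for serum response factor.
Errfi1: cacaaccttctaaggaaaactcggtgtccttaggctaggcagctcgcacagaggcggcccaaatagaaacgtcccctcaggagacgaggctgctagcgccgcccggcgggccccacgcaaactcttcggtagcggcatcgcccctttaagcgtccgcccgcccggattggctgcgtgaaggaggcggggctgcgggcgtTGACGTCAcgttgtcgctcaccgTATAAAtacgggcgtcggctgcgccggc
Dusp8: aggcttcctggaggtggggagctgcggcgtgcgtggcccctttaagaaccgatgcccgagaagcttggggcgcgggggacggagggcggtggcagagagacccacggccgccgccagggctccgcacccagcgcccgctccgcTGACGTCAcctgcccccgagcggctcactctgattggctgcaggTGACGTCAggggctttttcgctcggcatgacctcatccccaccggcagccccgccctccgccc
Dusp1: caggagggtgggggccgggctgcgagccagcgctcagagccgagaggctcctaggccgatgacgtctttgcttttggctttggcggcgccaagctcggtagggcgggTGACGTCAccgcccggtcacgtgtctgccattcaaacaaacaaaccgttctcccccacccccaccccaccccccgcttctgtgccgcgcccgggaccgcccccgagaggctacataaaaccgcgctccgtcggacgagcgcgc
Dusp5: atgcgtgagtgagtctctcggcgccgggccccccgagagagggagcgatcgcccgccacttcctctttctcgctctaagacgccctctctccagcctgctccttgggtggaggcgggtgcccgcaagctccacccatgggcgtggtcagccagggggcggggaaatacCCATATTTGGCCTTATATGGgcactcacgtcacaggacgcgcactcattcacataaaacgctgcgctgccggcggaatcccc

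A CRE match lay in the windows of Dusp8 (bases −107 to −100 and −63 to −56 from the start), Dusp1 (−143 to −136) and the second start of Errfi1 (−51 to −44). That is 3 of the 10 windows, while 588 of all 32851 promoter windows (1.79%) held one. The CArG box was found in Dusp5 alone of the 9 genes with a window (−82 to −73 and −72 to −63) and in 535 of all windows (1.63%). The EGR motif GCGNGGGCG was in the windows of Dusp2 and Dusp16 and in 1824 of all windows (5.55%). In Dusp2 (−98 to −90) and Dusp16 (−138 to −130) it overlapped a match of the SP1 motif GGGCGG. SP1 matched in 8 of the 10 windows and in 11714 of all windows (35.7%). The TATA box, searched on the gene's strand only, was in the second Errfi1 window (−28 to −23) and in 2733 of all windows (8.32%). The AP-1 motif TGANTCA, in 2565 of all windows (7.81%), and the NF-kB motif, in 1480 (4.51%), matched in 0 of the 10 windows, and neither Dusp6 nor the first start of Errfi1 held any motif searched. All motifs but the TATA box were searched on both strands. A match describes letters in the window, not a bound site, and a window without one says only that these letters are not there. Of the 23 immediate early genes described with the comparisons, 17 had a window, of which 1 (Btg2) held the CRE and 1 (Egr2) the CArG box. Of the other feedback regulators 27 had a window, with the CRE in 4 (Ppm1a, Ppm1d, Ppp2ca and Ptpn11) and the CArG box in 1 (Zfp36). Of the genes with a window, the CRE was found for 1 of 15 other dual-specificity phosphatases, 1 of 17 of the ERK cascade, 1 of 24 of the JNK and p38 cascades, 1 of 8 of the EGFR family and ligands and 0 of 8 of the heat shock genes, and the CArG box for 1 of these, from the ERK cascade.

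**Figure D2:**
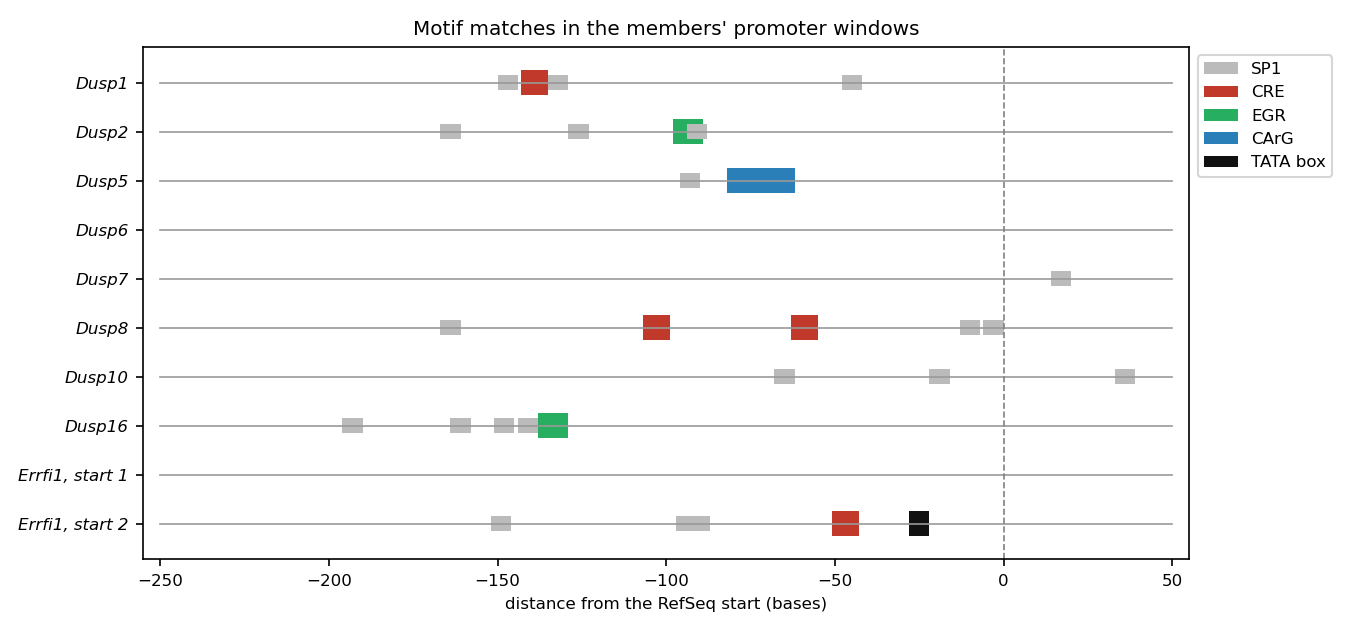
Motif matches in the 10 promoter windows of the 9 matched genes, with the distance in bases from the RefSeq start (dashed line) on the x axis and 1 line per window, colored by motif. CRE matches sit before the starts of Dusp1, Dusp8 and the second start of Errfi1, and the CArG boxes before that of Dusp5.

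Dusp10 (ENSMUSG00000039384, chr1:184013302-184075636, plus strand) and Dusp16 (ENSMUSG00000030203, chr6:134715468-134792625, minus strand) also act on JNK and p38. The level of Dusp10 was 5.71 and 5.00 CPM in CTR, 8.44 and 11.6 with OAT-1746, 4.74 and 6.65 under anti-PD-1 and 3.78, 4.36 and 3.69 in COMB. Both OAT-1746 libraries were highest and the 3 COMB libraries lowest, with CTR lying between the anti-PD-1 libraries. The level of Dusp16 was 43.5 and 51.3 CPM in CTR, 69.0 and 61.7 with OAT-1746, 41.2 and 65.2 under anti-PD-1 and 40.4, 42.8 and 42.3 in COMB. Its OAT-1746 libraries lay above CTR and COMB, while the anti-PD-1 libraries spread over the range of all 3 other groups.

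Dusp4 (ENSMUSG00000031530, chr8:34807297-34819894, plus strand) and Dusp5 (ENSMUSG00000034765, chr19:53529109-53542431, plus strand) encode inducible nuclear phosphatases, Dusp5 with ERK as its target. The level of Dusp4 was 2.70 and 3.24 CPM in CTR, 3.14 and 3.38 with OAT-1746, 2.58 and 4.001 under anti-PD-1 and 1.11, 1.06 and 1.35 in COMB. The 3 COMB libraries were below all others, which overlapped one another, and the counts behind these levels ran from only 15 to 71 per library. For Dusp5 the level was 31.4 and 33.5 CPM in CTR, 40.9 and 43.6 with OAT-1746, 37.7 and 60.4 under anti-PD-1 and 19.1, 24.0 and 21.5 in COMB. Here too all COMB libraries were lowest, and the OAT-1746 and anti-PD-1 libraries all lay above CTR.

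Dusp1 (ENSMUSG00000024190, chr17:26505590-26562128, minus strand), a nuclear phosphatase that limits p38 and JNK activity and cytokine output in macrophages, had 1268 and 1498 CPM in CTR, 1580 and 2103 with OAT-1746, 2170 and 1390 under anti-PD-1 and 1419, 1667 and 1613 in COMB. Anti-PD-1 replicate 1 and OAT-1746 replicate 2 were the highest libraries, and the anti-PD-1 and COMB groups overlapped with CTR. Dusp2 (ENSMUSG00000027368, chr2:127336159-127338376, plus strand), a nuclear phosphatase of blood cells, had 53.5 and 45.3 CPM in CTR, 49.4 and 43.1 with OAT-1746, 58.0 and 76.9 under anti-PD-1 and 31.2, 43.6 and 47.7 in COMB. Only its anti-PD-1 libraries stood above the others, and the other 3 groups overlapped.

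Dusp6 (ENSMUSG00000019960, chr10:99263231-99267489, plus strand) and Dusp7 (ENSMUSG00000053716, chr9:106368632-106375724, plus strand) encode cytoplasmic phosphatases of ERK. The level of Dusp6 ranged from 355 CPM in COMB replicate 3 to 519 in OAT-1746 replicate 2, with the COMB libraries below all others by a small margin (422 at most, against 428 at least). The level of Dusp7 was 76.6 and 81.3 CPM in CTR, 111 and 123 with OAT-1746, 89.9 and 84.9 under anti-PD-1 and 97.7, 55.8 and 56.1 in COMB. Its OAT-1746 libraries were highest, and COMB replicate 1 lay apart from the other COMB libraries and above CTR and anti-PD-1.

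OAT-1746 alone was compared with CTR to ask what arginase inhibition did to these cells. The fitted log2 fold change was 2.63 ± 0.35 (SE, n = 2 against 2) for Dusp8 and 1.92 ± 0.28 for Errfi1, and 0.90 ± 0.26 for Dusp10. Those of the other genes were between −0.09 ± 0.23 (Dusp2) and 0.57 ± 0.26 (Dusp7). Without OAT-1746 replicate 2 they were 2.15 for Dusp8, 1.48 for Errfi1, 0.67 for Dusp10, 0.20 for Dusp1 (0.41 with all libraries) and −0.10 for Dusp6 (0.03), and without CTR replicate 1 Dusp2 had 0.04. The median over the 10 genes was 0.44, against 0.01 over all genes tested. By edgeR's quasi-likelihood test with Benjamini-Hochberg adjustment 0 of the 10 genes and 0 of all genes were called (adjusted p under 0.05), a background of 0%, with a smallest adjusted p of 0.0599. Without adjustment, 4049 genes had p under 0.05, 2013 higher and 2036 lower. DESeq2 called 1996 genes, 3 of them among the 10 (Dusp8, Dusp10 and Errfi1), and limma voom 0. Calls by edgeR depended on single libraries: 3617 genes and 3 of the 10 were called without OAT-1746 replicate 1, and 278 genes and 2 of the 10 without COMB replicate 1. In 7 of the 10 genes both OAT-1746 libraries were above both CTR libraries, where 30.8% of all genes tested showed this. Because the choice of genes used these groups, nothing is read from that count. Other measures moved in the same comparison. All 10 microglia markers had higher values with OAT-1746, each at an unadjusted p under 0.05 (median 0.93). All 10 monocyte and macrophage markers had lower values, 4 of them at that threshold (median −0.72). Of these markers edgeR called 0, and the mitochondrial share was higher. For some monocyte and macrophage markers only OAT-1746 replicate 2 was lower. Ly6c2 had 303 and 692 CPM in CTR, and 929 and 39.7 with OAT-1746. Lyz2 was lower in both OAT-1746 libraries, at 3140 and 919 CPM against 4793 and 4296 in CTR. Of the neutrophil markers 7 of 9 had higher values, 3 at that threshold (median 0.76), and of the neuron markers 4 of 5, 2 at that threshold (median 1.27). Their part in the values of the phosphatases was not tested.

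No gene of the pathway lists passed edgeR's test in this comparison. The immediate early list, transcription factors and regulators that MAPK signaling switches on within minutes, had a median log2 fold change of 0.91 over 22 genes tested, with 13 higher and 0 lower at an unadjusted p under 0.05. DESeq2 called 12 of them, all higher. Its most abundant gene, Junb, had 0.29 ± 0.25 (log2, SE). Other feedback regulators (28 tested, such as Sprouty proteins, Cbl ligases and the mRNA decay factor Zfp36) had a median of 0.32, with 9 higher and 1 lower at an unadjusted p under 0.05, and Zfp36 itself, the most abundant, had 0.42 ± 0.20. DESeq2 called 9 of these, 8 higher and 1 lower. For the kinases of the ERK cascade the median was 0.00, for those of the JNK and p38 cascades 0.31, for other dual-specificity phosphatases −0.00, for EGFR family genes and ligands 1.05 and for heat shock genes −0.37. At an unadjusted p under 0.05, these lists had 5 higher and 2 lower, 7 and 4, 1 and 0, 3 and 1, and 3 and 3 genes, in the same order. DESeq2 called 3, 4, 1, 3 and 4 of them. The most abundant genes of these lists were Rps6ka1 (0.47 ± 0.18), Mapkapk2 (−0.81 ± 0.26), Ssh2 (1.00 ± 0.27), Tgfa (1.05 ± 0.32) and Hspa8 (−0.58 ± 0.27). Of the EGFR list, Ereg, Btc and Epgn, and of the other phosphatases, Dusp13, Dusp21 and Styxl1, had 3 counts or fewer in every library.

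Anti-PD-1 alone was compared with CTR to ask what the antibody did. The log2 fold change was 0.88 ± 0.34 (SE, n = 2 against 2) for Dusp8, 0.65 ± 0.27 for Errfi1, 0.60 ± 0.22 for Dusp5 and 0.45 ± 0.23 for Dusp2. The other genes lay between 0.02 ± 0.18 (Dusp6) and 0.36 ± 0.25 (Dusp1). These values moved with single libraries. Without anti-PD-1 replicate 2 they were 0.46 for Dusp8, 0.38 for Errfi1, 0.21 for Dusp5 and 0.23 for Dusp2, and turned to −0.21 for Dusp4, −0.18 for Dusp10 and −0.21 for Dusp16. Without anti-PD-1 replicate 1, Dusp1 had 0.01 and Dusp6 −0.07, and Dusp6 had −0.07 without CTR replicate 2 as well. The median was 0.27, against 0.02 over all genes. By edgeR's quasi-likelihood test 0 of the 10 and 0 of all genes (0%) were called after Benjamini-Hochberg adjustment, with 642 genes at an unadjusted p under 0.05. DESeq2 called 14 genes and 0 of the 10, and limma voom 0. In 5 of the 10 genes both anti-PD-1 libraries lay above both CTR libraries, as in 20.6% of all genes. No pathway list gene passed edgeR's test. Immediate early genes had a median of 0.13, with 4 higher and 0 lower at an unadjusted p under 0.05, and DESeq2 called 1 gene over all pathway lists. The other lists had 3 higher and 0 lower (other feedback regulators), 1 and 0 (JNK and p38 cascades), 0 and 1 (other phosphatases), 1 and 0 (heat shock) and 0 and 0 (ERK cascade and EGFR family) at that threshold. All 10 natural killer markers had higher values in these libraries, 8 at an unadjusted p under 0.05 and 0 called by edgeR (median 2.20), as had 5 of 6 T cell markers, 1 at that threshold (median 1.82). Their part in these values was not tested.

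COMB was then compared with CTR. Nearly all of the genes had lower values in COMB, led by Dusp4 with a log2 fold change of −1.34 ± 0.33 (SE, n = 3 against 2) and Dusp5 with −0.59 ± 0.20. Errfi1 had −0.48 ± 0.25, Dusp8 −0.46 ± 0.33 and Dusp10 −0.44 ± 0.25. Dusp2 had −0.27 ± 0.21 and Dusp6 −0.25 ± 0.16. The values of Dusp7 (−0.18 ± 0.23), Dusp16 (−0.18 ± 0.19) and, on the other side, Dusp1 (0.18 ± 0.23) were within their standard errors, and the libraries of Dusp1, Dusp2 and Dusp7 overlapped. The smaller values moved with single libraries: Dusp7 had −0.52 without COMB replicate 1, −0.04 without COMB replicate 2 and −0.02 without COMB replicate 3, while Dusp16 had −0.06 without CTR replicate 2. Leaving out CTR replicate 1 gave −0.13 for Dusp2, −0.13 for Dusp6 and 0.09 for Dusp1, and leaving out CTR replicate 2 gave 0.30 for Dusp1. The median was −0.36, against −0.00 over all genes. By edgeR's quasi-likelihood test 0 of the 10 and 0 of all genes (0%) were called after Benjamini-Hochberg adjustment, the smallest adjusted p being 0.184, with 825 genes at an unadjusted p under 0.05. DESeq2 called 35 genes and 0 of the 10, and limma voom 2 genes. In 7 of the 10 genes all COMB libraries lay below both CTR libraries, as in 15.8% of all genes. Of the immediate early genes 0 passed edgeR's test, with 0 higher and 14 lower at an unadjusted p under 0.05 and a median of −0.83. Junb had −0.96 ± 0.22. Of the other lists, feedback regulators had 2 higher and 5 lower at that threshold, the ERK cascade and the JNK and p38 cascades each 0 and 2, heat shock genes 1 and 1, and other phosphatases and the EGFR family 0 and 0. Over all pathway lists DESeq2 called 6 genes and voom 1, where edgeR called 0. Several marker lists moved in this comparison, with 0 markers called by edgeR. All 10 natural killer markers had higher values in COMB, 4 at an unadjusted p under 0.05 (median 1.35). At that threshold 4 of 5 astrocyte markers were higher (median 1.15), while the fifth, Gfap, had 5.17 and 6.12 CPM in CTR and 3.71, 4.29 and 2.84 in COMB. Also higher were 3 of 9 neutrophil markers (median 0.79) and 3 of 5 endothelial markers (median 0.62). Of the T cell markers 5 of 6 had higher values, 1 at that threshold (median 1.22). Of the monocyte and macrophage markers 7 of 10 had lower values (median −0.33), with 1 higher and 0 lower at that threshold. The part of these markers in the values of the phosphatases was not tested.

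COMB against OAT-1746 asks what the antibody added to the inhibitor, and edgeR called more genes here than in any other comparison. All 10 genes had lower values in COMB: the log2 fold change was −3.09 ± 0.31 (SE, n = 3 against 2) for Dusp8, −2.40 ± 0.25 for Errfi1, −1.47 ± 0.32 for Dusp4, −1.34 ± 0.24 for Dusp10 and −0.97 ± 0.20 for Dusp5. Smaller differences were found for Dusp7 (−0.74 ± 0.23), Dusp16 (−0.64 ± 0.19), Dusp6 (−0.28 ± 0.16), Dusp1 (−0.23 ± 0.22) and Dusp2 (−0.18 ± 0.21). The median was −0.86, against 0.00 over all genes. edgeR's quasi-likelihood test with Benjamini-Hochberg adjustment called 1979 genes, 1121 lower (8.94%) and 858 higher (6.84%), and 6 of the 10, all lower (Dusp4, Dusp5, Dusp8, Dusp10, Dusp16 and Errfi1). In 8 of the 10, all but Dusp1 and Dusp2, every COMB library was below both OAT-1746 libraries, as in 28.9% of all genes. Nothing is read from these counts, since the choice of genes used these groups.

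The number of calls in this comparison hung on the libraries fitted. With only the OAT-1746 and COMB libraries in the model, edgeR called 30 genes, 2 of the 10 and 7 pathway list genes, in place of 1979, 6 and 45. Without OAT-1746 replicate 2, edgeR called 27 genes, 1 higher and 26 lower, and 2 of the 10 (Dusp8 and Errfi1), and the log2 fold changes were −2.58 for Dusp8, −1.94 for Errfi1, −1.08 for Dusp10, −0.91 for Dusp5, −0.12 for Dusp6 and −0.00026 for Dusp1. Leaving out COMB replicate 1 gave −0.05 for Dusp2. Without COMB replicate 2 edgeR called 14 genes and 2 of the 10, and without COMB replicate 3 it called 5 genes and 0 of the 10. Over every library left out in turn, the log2 fold change stayed between −3.45 and −2.58 for Dusp8 and between −2.74 and −1.94 for Errfi1. With all libraries DESeq2 called 3062 genes and 7 of the 10, and edgeR had 4651 genes at an unadjusted p under 0.05. Leaving out CTR replicate 1 or 2 gave 734 or 808 genes, and leaving out anti-PD-1 replicate 1 or 2 gave 861 or 927. Without OAT-1746 replicate 1 there were 4033. Marker lists moved in the same comparison. All 10 microglia markers had lower values in COMB (median −0.71, 2 called lower, Sall1 and P2ry12), and 8 of 10 monocyte and macrophage markers had higher values (median 0.60, 2 called higher). The summed level of the latter was 5972 CPM in OAT-1746 replicate 1, 1377 in OAT-1746 replicate 2 and 5797, 5804 and 5936 in COMB. All 10 natural killer markers had higher values, 3 at an unadjusted p under 0.05 and 0 called by edgeR (median 0.96). Of 5 neuron markers 2 were called lower (median −1.22), and of 5 astrocyte markers Aldoc was called higher and Gfap lower (median 0.91). The share of mitochondrial counts was 2.46% and 2.26% with OAT-1746 and 1.61%, 0.810% and 0.931% in COMB. Their part in the values of the phosphatases was not tested.

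**Figure D3:**
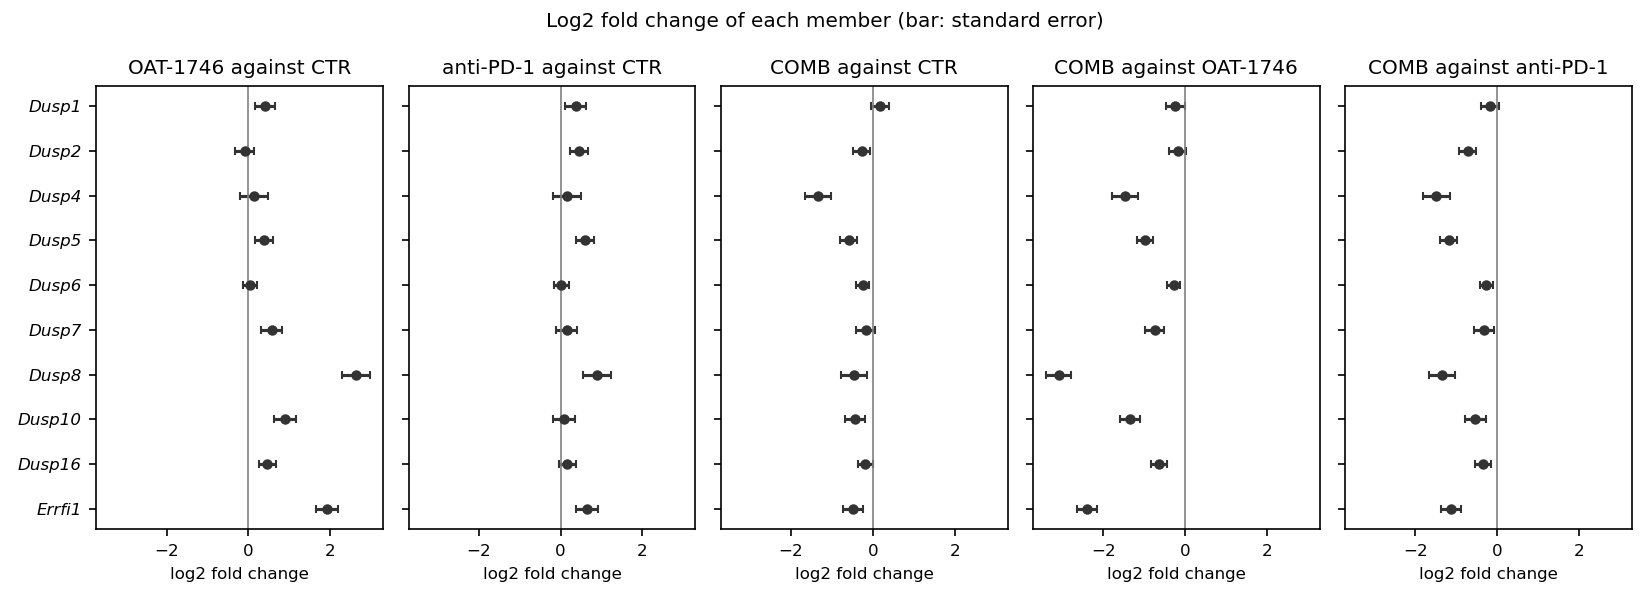
Log2 fold change (x axis) of each of the 10 genes in 5 comparisons of the 4 groups, with bars for the standard error of the fit. Dusp8 and Errfi1 lie farthest to the right in OAT-1746 against CTR and farthest to the left in COMB against OAT-1746.

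Immediate early genes fell in the same comparison. Of 22 tested, 19 fell and 0 rose in COMB against OAT-1746, with a median log2 fold change of −1.56. Egr1, a zinc finger factor induced through ERK, had 767 and 851 CPM in CTR, 2591 and 3730 with OAT-1746, 655 and 1117 under anti-PD-1 and 224, 231 and 256 in COMB. Its OAT-1746 libraries were far above all others and its COMB libraries below all others. By edgeR's quasi-likelihood test with Benjamini-Hochberg adjustment Egr1 fell by 3.74 ± 0.26 on the log2 scale (SE, adjusted p = 0.00148). By the same edgeR test, the AP-1 subunit Fosb had −4.00 ± 0.64 (adjusted p = 0.0171), Egr3 −3.06 ± 0.50 (adjusted p = 0.0178), Egr2 −2.94 ± 0.59 (adjusted p = 0.0247) and the nuclear receptor Nr4a1 −2.56 ± 0.41 (adjusted p = 0.0171). Every COMB library was below both OAT-1746 libraries for each of these genes. The list was chosen with earlier results of these data known, so its direction is no independent evidence. Without OAT-1746 replicate 2 the values were −3.44 for Egr1, −2.67 for Fosb, −1.95 for Egr3, −2.14 for Egr2 and −1.92 for Nr4a1, and edgeR called only Egr1 of these. Of the 45 pathway list genes called, 4 were called without that library, 41 were not and 0 changed sign. Without COMB replicate 2 or COMB replicate 3, edgeR called 4 and 3 genes over all pathway lists.

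Among other feedback regulators 9 of 28 tested fell and 0 rose, with a median of −0.38, where 8.94% of all genes fell and 6.84% rose. The other 19 did not pass, and 8 of the 28 had higher values, 2 of them at an unadjusted p under 0.05. The antiproliferative factors Tob1 and Tob2, which also act in mRNA decay, had log2 fold changes of −2.10 ± 0.29 (adjusted p = 0.0143 by edgeR's quasi-likelihood test) and −2.09 ± 0.30 (adjusted p = 0.0159). Spry1, a Sprouty inhibitor of receptor tyrosine kinase signaling, had −1.44 ± 0.26 (adjusted p = 0.0203 by the same edgeR test). Zfp36, which destabilizes cytokine mRNAs, had −1.26 ± 0.18 (adjusted p = 0.0160, edgeR), and Lrig3 −1.08 ± 0.25 (adjusted p = 0.0312). When OAT-1746 replicate 2 was left out, edgeR called none of these 5, with values of −1.56 for Tob1, −1.65 for Tob2, −0.97 for Spry1, −1.23 for Zfp36 and −0.65 for Lrig3. Other dual-specificity phosphatases had a median of −0.03 over 15 tested, and 1 was called. This was Ssh2, a cofilin phosphatase, with −1.04 ± 0.24 (adjusted p = 0.0318, edgeR), and −0.71 without that library, where it was not called. No test of the difference between the lists was made.

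The kinases gave a mixed picture. In the ERK cascade 4 of 23 fell and 2 rose, with a median of −0.04. Map3k8 (Tpl2), the kinase that links Toll-like receptors to ERK in macrophages, had 26.7 and 27.3 CPM in CTR, 48.4 and 60.3 with OAT-1746, 33.4 and 29.9 under anti-PD-1 and 17.6, 15.7 and 16.2 in COMB. Again both OAT-1746 libraries were highest and the COMB libraries lowest. edgeR's quasi-likelihood test gave −1.72 ± 0.15 on the log2 scale (adjusted p = 0.00322). The scaffold Ksr1 had −1.16 ± 0.27 (adjusted p = 0.0307, edgeR) and the exchange factor Sos1 −0.88 ± 0.19 (adjusted p = 0.0286), while Hras had 0.99 ± 0.21 (adjusted p = 0.0275) and Map2k2, an ERK kinase, 0.69 ± 0.18 (adjusted p = 0.0413). In the JNK and p38 cascades 4 of 23 fell and 3 rose, with a median of −0.22. Mapk13, a p38 isoform, had 3.14 ± 0.77 (adjusted p = 0.0347, edgeR) from a very low level, 0.291 and 0.0572 CPM in OAT-1746 and 0.964, 1.52 and 2.27 in COMB. Map3k1 had −0.93 ± 0.26 (adjusted p = 0.0447, edgeR), Map2k7, which activates JNK, −0.66 ± 0.19 (adjusted p = 0.0477), Rps6ka5 −0.65 ± 0.19 (adjusted p = 0.0474) and Map3k2 −0.58 ± 0.15 (adjusted p = 0.0362). Of the kinase cascade genes named here edgeR called only Map3k8 without OAT-1746 replicate 2, with −1.54. Those that moved most for their size were then −0.71 for Ksr1, −0.34 for Map2k7 and −0.35 for Rps6ka5.

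Errfi1 acts on EGFR, whose own mRNA was scarce, with 1.08 and 0.706 CPM in CTR, 1.86 and 1.83 with OAT-1746, 2.02 and 1.13 under anti-PD-1 and 1.63, 1.06 and 0.851 in COMB. Of the EGFR family and its ligands 5 of 11 could be tested and 1 fell, the ligand Hbegf. Its level was 6.19 and 4.65 CPM in CTR, 11.2 and 20.2 with OAT-1746, 6.06 and 8.73 under anti-PD-1 and 4.82, 3.70 and 4.18 in COMB. OAT-1746 was highest without overlap, and edgeR's quasi-likelihood test gave −1.89 ± 0.30 for COMB against OAT-1746 (log2, adjusted p = 0.0160), and −1.39 without OAT-1746 replicate 2, where edgeR did not call it. Tgfa, the most abundant ligand, had 63.8 and 82.7 CPM in CTR, 126 and 178 with OAT-1746, 113 and 85.8 under anti-PD-1 and 119, 63.0 and 69.5 in COMB. Among 10 heat shock genes 2 fell, with a median of 0.08 over the list. The chaperone gene Hspa1a had 24.9 and 8.23 CPM in CTR, 20.7 and 134 with OAT-1746, 33.7 and 60.1 under anti-PD-1 and 5.41, 6.34 and 6.73 in COMB, so that OAT-1746 replicate 2 stood far above and replicate 1 lay within the CTR range. Its log2 fold change was −3.65 ± 0.71 (adjusted p = 0.0239, edgeR) and that of Dnajb1 −1.37 ± 0.25 (adjusted p = 0.0211). These were −1.73 and −0.89 without OAT-1746 replicate 2, and edgeR called neither. Hspa1a has a nearly identical copy, Hspa1b, and counting required a minimum mapping quality, so reads that fit both may be missing from its count.

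**Figure D4:**
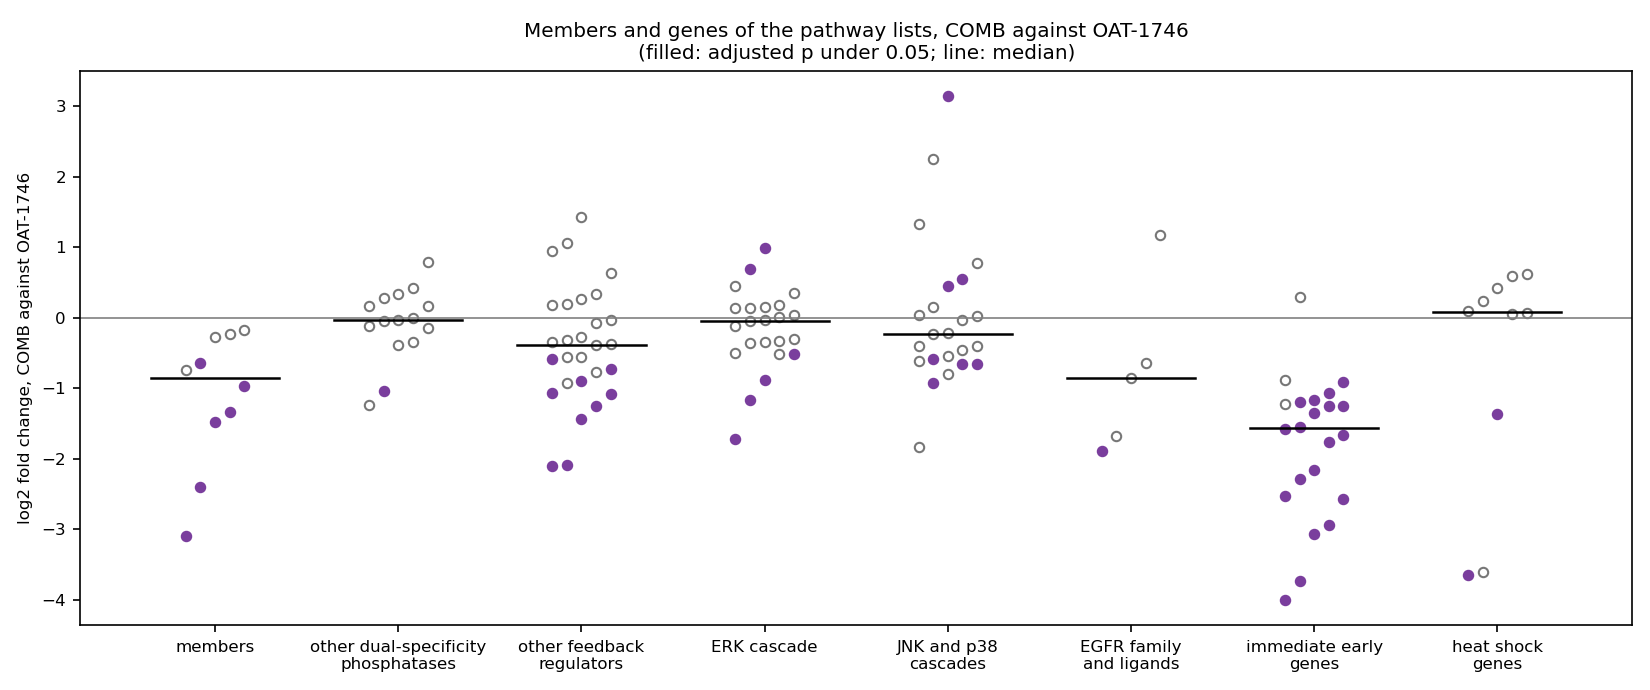
Log2 fold change (y axis) in COMB against OAT-1746 for the 10 genes and the genes of 7 pathway lists, 1 point per gene tested, filled where edgeR's adjusted p was under 0.05, with a line at the list median. Immediate early genes lie mostly below 0 (median −1.56), while the other dual-specificity phosphatases lie around 0 (median −0.03).

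COMB against anti-PD-1 asks what the inhibitor added to the antibody. All 10 genes had lower values in COMB, with log2 fold changes of −1.49 ± 0.32 (SE, n = 3 against 2) for Dusp4, −1.34 ± 0.32 for Dusp8, −1.19 ± 0.20 for Dusp5, −1.13 ± 0.24 for Errfi1 and −0.73 ± 0.20 for Dusp2. The other genes lay between −0.53 ± 0.25 (Dusp10) and −0.18 ± 0.22 (Dusp1). The sign of 2 of them changed with a library: Dusp1 had 0.17 without anti-PD-1 replicate 1 and Dusp16 0.03 without anti-PD-1 replicate 2, where Dusp10 had −0.26. Dusp7 had −0.64 without COMB replicate 1 and −0.14 without COMB replicate 3, in place of −0.32. The median was −0.63, against −0.01 over all genes. By edgeR's quasi-likelihood test 0 of the 10 and 0 of all genes (0%) were called after Benjamini-Hochberg adjustment, with a smallest adjusted p of 0.206 and 907 genes at an unadjusted p under 0.05. DESeq2 called 47 genes and limma voom 35, each with 2 of the 10, Dusp5 and Errfi1. Leaving out a library brought calls by edgeR as well: 52 genes and 2 of the 10 without OAT-1746 replicate 1, 41 genes and 1 of the 10 (Errfi1) without OAT-1746 replicate 2, and 5 genes without anti-PD-1 replicate 1. In 7 of the 10 genes all COMB libraries were below both anti-PD-1 libraries, as in 16.4% of all genes. Nothing is read from these counts, as the choice of genes used the same groups. Of the immediate early genes 0 passed edgeR's test, although 20 were lower and 0 higher at an unadjusted p under 0.05, with a median of −1.03. None of the other lists had a higher gene at that threshold, and 5 feedback regulators, 4 heat shock genes, 2 genes of the JNK and p38 cascades and 1 each of the ERK cascade, other phosphatases and EGFR family were lower. Over all pathway lists DESeq2 called 10 genes and voom 7. All 10 natural killer markers had lower values in COMB, 2 at an unadjusted p under 0.05 (median −0.86), with 0 called by edgeR. Of 9 neutrophil markers 5 were higher and 1 lower at that threshold (median 1.13), with 0 called. Of the monocyte and macrophage markers 9 of 10 had lower values (median −0.48), with 1 higher and 1 lower at that threshold. Of the astrocyte markers 4 of 5 had higher values, 1 at that threshold (median 0.71). Their part in the values of the phosphatases was not tested.

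The interaction asks whether OAT-1746 had a different effect with the antibody than without it, as the difference between COMB against anti-PD-1 and OAT-1746 against CTR. The log2 difference was −3.97 ± 0.47 (SE) for Dusp8, −3.05 ± 0.37 for Errfi1, −1.62 ± 0.47 for Dusp4, −1.57 ± 0.30 for Dusp5 and −1.43 ± 0.36 for Dusp10. For these genes OAT-1746 went with higher values without the antibody and lower values with it, although for Dusp4 the CTR and OAT-1746 libraries overlapped. The other genes lay between −0.89 ± 0.35 (Dusp7) and −0.30 ± 0.24 (Dusp6), and some moved with single libraries, Dusp16 from −0.81 to −0.43 and Dusp2 from −0.63 to −0.40 without anti-PD-1 replicate 2, Dusp1 from −0.60 to −0.24 without anti-PD-1 replicate 1, and Dusp6 to −0.14 without OAT-1746 replicate 2. The median was −1.16, against −0.02 over all genes. edgeR's quasi-likelihood test with Benjamini-Hochberg adjustment called 45 genes, 44 lower (0.351%) and 1 higher (0.00798%), and 2 of the 10, both lower, from which nothing is read. DESeq2 called 1025 genes and 4 of the 10 (Dusp5, Dusp8, Dusp10 and Errfi1), and limma voom 428 and 3. In 4 of the 10 (Dusp5, Dusp8, Dusp10 and Errfi1) both OAT-1746 libraries lay above CTR and all COMB libraries below anti-PD-1, as in 6.56% of all genes, and nothing is read from these counts.

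Of the pathway lists, 7 of 22 immediate early genes and Map3k8 had a negative interaction past the threshold. Egr1 had −3.87 ± 0.37 on the log2 scale (adjusted p = 0.0285, edgeR's quasi-likelihood test). By the same edgeR test the AP-1 subunits Jun and Jund had −2.80 ± 0.34 (adjusted p = 0.0289) and −2.11 ± 0.28 (adjusted p = 0.0304), the stress-induced factor Atf3 −2.89 ± 0.48 (adjusted p = 0.0499) and Ier5 −1.94 ± 0.27 (adjusted p = 0.0354). Map3k8 had −1.95 ± 0.22 (adjusted p = 0.0289, edgeR). For each of these genes both OAT-1746 libraries lay above CTR and all COMB libraries below anti-PD-1. The median over the immediate early list was −1.83. In the other lists 0 genes were called by edgeR. At an unadjusted p under 0.05 these had 11 lower and 0 higher (other feedback regulators), 6 and 2 (JNK and p38 cascades), 2 and 1 (other phosphatases), 2 and 1 (EGFR family) and 4 and 0 (heat shock), and over all lists DESeq2 called 35 genes and voom 20.

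Marker lists moved in the interaction as well, with 0 of these markers called by edgeR. All 10 microglia markers had negative values, 3 at an unadjusted p under 0.05 (median −0.82), as had 8 of 10 natural killer markers, 2 at that threshold (median −1.01), and 4 of 5 neuron markers, 2 at that threshold (median −1.56). Their part in the values of the phosphatases was not tested.

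These calls too were sensitive to single libraries. Without OAT-1746 replicate 2 edgeR called 26 genes, 2 of the 10 (Dusp8 and Errfi1) and 8 pathway list genes, and the log2 interaction was −3.46 for Dusp8 and −2.58 for Errfi1. For the list genes it was −3.56 for Egr1, −2.43 for Jun, −2.21 for Atf3 and −1.34 for Klf10, which had −1.29 with all libraries. Without that library edgeR did not call Klf10, so the list genes called were not all the same. Without CTR replicate 1, CTR replicate 2, anti-PD-1 replicate 2, COMB replicate 2 or COMB replicate 3 it called 0 genes, while with all libraries 3281 genes were at an unadjusted p under 0.05 and DESeq2 called 1025. Without OAT-1746 replicate 1 there were 2734 calls and without COMB replicate 1 424.

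Across the 9 libraries the 10 genes did not all follow 1 course. Pearson r of log2 CPM was 0.994 between Dusp8 and Errfi1, 0.969 between Dusp8 and Dusp10, and 0.959 between Dusp10 and Errfi1, and 0.987, 0.935 and 0.914 without OAT-1746 replicate 2. Dusp4 and Dusp5 formed another close pair, with r 0.916 (0.908 without that library). Dusp1 was unlike most others. Against the mean of the other 9 genes, r was 0.267 for Dusp1 and 0.351 for Dusp2, compared with 0.939 for Errfi1, 0.917 for Dusp8, 0.899 for Dusp10 and 0.873 for Dusp5. With the mean of all 10 genes, r for Dusp1 was 0.385 over 9 libraries and 0.0910 without OAT-1746 replicate 2, so most of its likeness rested on that library. For Dusp2 it went the other way, from 0.462 to 0.690, which is above Dusp7 (0.669) and Dusp6 (0.569) without that library, and Dusp2 had r 0.761 with Dusp5 (0.865 without it). The libraries share groups, so these correlations include the group differences, and no p is given. The parts within and between groups were not separated.

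**Figure D5:**
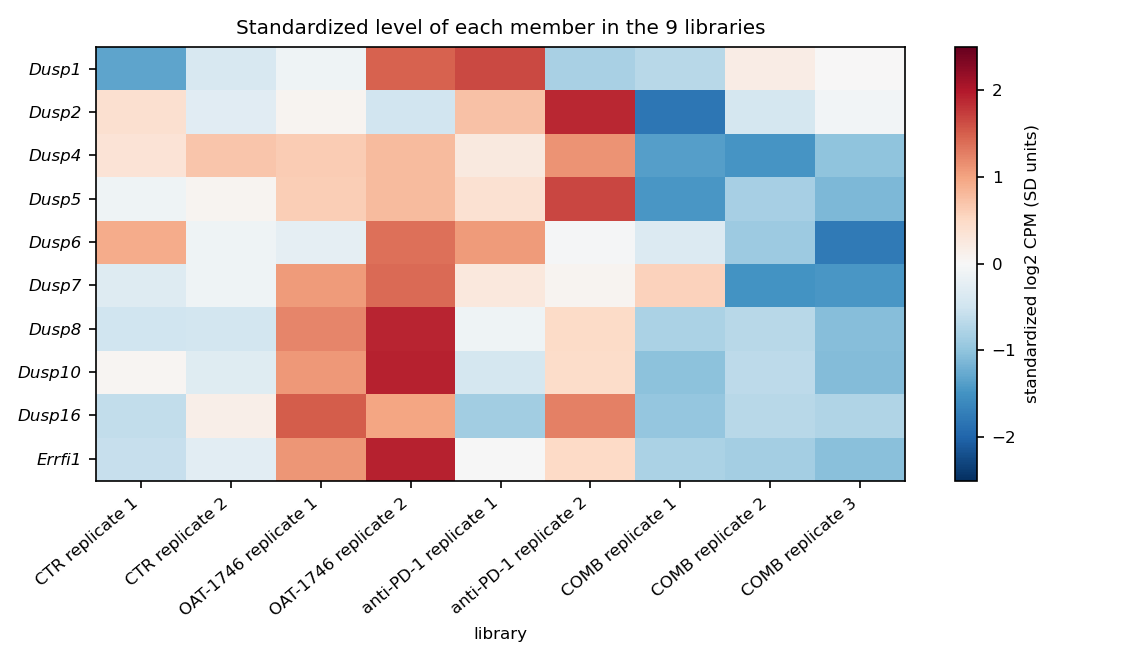
Standardized log2 CPM (color, in SD units over the 9 libraries) of each of the 10 genes (y axis) in each library (x axis). Dusp8, Dusp10 and Errfi1 share their highest value in OAT-1746 replicate 2, while Dusp1 is highest in anti-PD-1 replicate 1 and Dusp2 in anti-PD-1 replicate 2.

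The mean standardized log2 CPM of the 10 genes was −0.17 and −0.10 in CTR, 0.70 and 1.21 in OAT-1746, 0.29 and 0.66 in anti-PD-1, and −0.87, −0.78 and −0.94 in COMB. The OAT-1746 libraries were highest and the COMB libraries lowest, and anti-PD-1 replicate 2 lay just under OAT-1746 replicate 1. The genes outside the list most like this mean were Ier5 (r 0.990 over 9 libraries), Jun (0.982), 1810013L24Rik (0.977), Sertad1 (0.972), Bbc3 (0.972), Peli1 (0.971), Bcl6 (0.971), Elf1 (0.969), Nfkbiz (0.968) and Atf3 (0.967). Without OAT-1746 replicate 2 their r ranged from 0.949 (Atf3) to 0.993 (Peli1). Mean levels of Jun were 1328 CPM in CTR, 3601 with OAT-1746, 1885 under anti-PD-1 and 736 in COMB. Those of Nfkbiz, a regulator of NF-kB target genes, were 251, 797, 299 and 98.2 CPM in the same order. Both thus had their highest mean in OAT-1746 and their lowest in COMB. Taken 1 by 1, the most similar gene was Gem for Dusp8 (r 0.992), Atxn7l2 for Errfi1 (0.993), Nlrp3, the inflammasome sensor, for Dusp10 (0.985), Lrrc39 for Dusp7 (0.969), Ppp1r3b for Dusp16 (0.962), Pik3ap1 for Dusp4 (0.958), Zfp949 for Dusp6 (0.951), Gadd45b for Dusp5 (0.942), Gpr160 for Dusp1 (0.933) and Irf2 for Dusp2 (0.908).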

How the data were processed

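Raw counts per gene, deposited by the authors for 9 libraries, were used as they stand. To make the count table the authors used Trimmomatic for trimming, STAR for alignment (mm10), Picard for flagging duplicates and HTSeq for counting read pairs per gene, on the reverse strand and with a minimum mapping quality. Opposite-strand genes overlap exons of Dusp1 (Ergic1), Dusp5 (AC137853.2) and Dusp8 (Gm32786), which stranded counting keeps apart. Of 53801 genes, 53620 were found in GENCODE M21, 181 were not, and 21890 were protein-coding. The annotation release used for counting is not given in the sources used here.

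Library totals were 13048075 to 18796479 counts. Protein-coding genes passing filterByExpr (minimum count 10) were tested with edgeR 4.0.16 in R 4.3.3: TMM normalization, 4 group means over all 9 libraries and quasi-likelihood F tests (two-sided), with calls at an adjusted p (Benjamini-Hochberg, 12538 genes) under 0.05. The common biological coefficient of variation was 0.214. Standard errors are the absolute log2 fold change over the root of F. Levels are TMM-normalized CPM, per kb of merged exons where genes are compared. Likeness is Pearson r of log2 CPM with a prior count of 2. Comparisons share groups and are not independent. Scripts were tested on simulated data. Figures used Python 3.11.15 and matplotlib 3.10.9.

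Alternatives were DESeq2 1.42.0 (the authors' tool), DESeq2 size factors or library size for normalization; a filter of at least 10 counts in each library, or none; the whole table in place of protein-coding genes; a replicate block; robust estimation; limma 3.58.1 voom with quality weights; only the groups compared; leaving out each library; a prior count of 0.5; and CPM without length. Likeness and the fold changes of called list genes without OAT-1746 replicate 2 were added after seeing the data.

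The members and lists were chosen with earlier results of these data known. Pathway lists were other dual-specificity phosphatases, other feedback regulators, ERK cascade, JNK and p38 cascades, EGFR family and ligands, immediate early and heat shock genes. Marker lists were microglia, monocytes and macrophages, border macrophages, neutrophils, dendritic, natural killer, T and B cells, neurons, oligodendrocytes, astrocytes, endothelial and erythroid cells. Genes were named by rule: all members; per list and comparison, up to 5 called genes with the largest absolute log2 fold change, or else the most abundant; the 10 most like the members' mean; the most like each member; and, per marker list, the most abundant gene and those at 3 counts or fewer throughout. Outside this rule, Itgam, Egfr, Btg2, Ppm1a, Ppm1d, Ppp2ca, Ptpn11, Ier2, Klf10, Sall1, P2ry12, Ly6c2 and Hspa1b were named after their values were seen. Some marker genes that the rule or a count would name are not reported here. Promoters were matched by symbol in RefSeq GRCm38.p6.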

Additional observations from a re-analysis of the deposited data

Results flagged for a closer look

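The effect of OAT-1746 differed with and without the antibody for 8 pathway list genes by edgeR's interaction test. The log2 interaction was −3.87 for Egr1, −2.89 for Atf3, −2.80 for Jun, −2.11 for Jund, −1.95 for Map3k8, −1.94 for Ier5, −1.73 for Ier2 and −1.29 for Klf10. The lists were chosen with earlier results of these data known, and without CTR replicate 1, CTR replicate 2, anti-PD-1 replicate 2, COMB replicate 2 or COMB replicate 3 edgeR called 0 list genes, where with all libraries DESeq2 called 35 and voom 20 and 3281 of all genes were at an unadjusted p under 0.05. In 4 of the 10 phosphatase and feedback genes both OAT-1746 libraries lay above CTR and all COMB libraries below anti-PD-1, as in 6.56% of all genes tested. The log2 differences of the effects were −3.97 for Dusp8, −3.05 for Errfi1, −1.57 for Dusp5 and −1.43 for Dusp10, and they are given as a description. The interaction tests called 2 (edgeR), 4 (DESeq2) and 3 (voom) of the 10 genes, beside 45, 1025 and 428 of all genes. Nothing is read from these counts, because the choice of genes used the same groups.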

How the results depend on the processing

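Of 1130 alternative values of the members' log2 fold changes, 1083 moved by less than the spread between replicates, 47 moved by more and 0 turned a called value around. Only members called in the main fit could count as turned around, 6 in COMB against OAT-1746 and 2 in the interaction. Some uncalled values near 0 did change sign, such as Dusp6 in 5 of 19 alternatives for anti-PD-1 against CTR. Counts of calls were far less stable, and the cause was not tested. Counts follow as genes, members and pathway list genes.

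In OAT-1746 against CTR, 0, 0 and 0 with edgeR became 1996, 3 and 36 with DESeq2 and 587, 2 and 20 with no low-count filter; leaving out a library gave 0 to 3617, 0 to 3 and 0 to 48. In anti-PD-1 against CTR, DESeq2 gave 14 genes and 1 list gene. In COMB against CTR, DESeq2 gave 35 genes and 6 list genes, no low-count filter 2 and 1, voom 2 and 1, and only the groups compared 5 and 3. In COMB against OAT-1746, 1979, 6 and 45 became 3062 genes with DESeq2, and 30, 2 and 7 with only the groups compared; leaving out a library gave 5 to 4033, 0 to 6 and 3 to 60. In COMB against anti-PD-1, DESeq2 gave 47, 2 and 10, voom 35, 2 and 7, no low-count filter 2 genes and 1 list gene, and only the groups compared 2 and 2; leaving out a library gave 0 to 52, 0 to 2 and 0 to 10. For the interaction, 45, 2 and 8 became 1025, 4 and 35 with DESeq2, 428 genes and 20 list genes with voom, 146 and 18 with no low-count filter, 24 genes with library size only and 18 with all genes of the table; leaving out a library gave 0 to 2734, 0 to 4 and 0 to 45. Where a group kept 1 library, that library was assumed to vary like the other groups.

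With the replicate number as a block, COMB against OAT-1746 gave 2 genes, 0 members and 1 list gene, and the interaction 0, 0 and 0, where, without the block, DESeq2 called 1025 genes and 3281 were at an unadjusted p under 0.05 in edgeR. Deviations of same-numbered libraries correlated at −0.349 to 0.0999. With groups of 2 or 3 libraries these values cannot show whether same-numbered libraries shared a batch, which was not tested. Without length, Dusp2 ranked 6 in place of 4, Dusp5 7 in place of 6 and Dusp16 4 in place of 7. Of the 10 genes most like the members' mean, 5 moved by 0.01 or more in r without OAT-1746 replicate 2. Depth limits Dusp4 most, at 15 to 71 counts per library, and groups of 2 or 3 libraries limit all tests.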
